A study of Mus musculus with 32 samples.

Results

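Fc receptors are the membrane proteins with which leukocytes bind the constant part of an antibody. The 8 genes described here were Fcgr1, Fcgr2b, Fcgr3, Fcgr4, Fcer1g, Fcgrt, Fcer1a and Fcrl1, taken by symbol from the RNA-seq tables and by Ensembl gene ID from the binding data. All 8 were among the 26560 genes of the Lin- table and 7 among the 25887 genes of the CD11b+ table, since Fcer1a has no row in the CD11b+ table used here. The binding data were eCLIP peaks of IGF2BP3, an oncofetal RNA-binding protein. In eCLIP, protein and RNA are crosslinked in the cell with ultraviolet light, the RNA is trimmed, the protein is pulled down with an antibody and the attached RNA fragments are sequenced. A size-matched input (smInput), a portion of each sample carried through the same gel steps, shows which fragments appear without enrichment for the protein.

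The study asked which transcripts IGF2BP3 binds in leukemia driven by MLL-Af4, a fusion oncogene. Lin- cells were mouse bone marrow cells depleted of lineage-positive cells, infected in bulk with the retrovirus MSCV-MLL-flag-Af4 and selected with G418. CD11b+ cells were selected on magnetic beads, by CD11b alone, from splenic tumors of mice with MLL-Af4 leukemia. Lin- eCLIP had 6 libraries (3 biological and 3 technical) and CD11b+ eCLIP had 4 (2 biological and 2 technical), each with its own smInput library. The labels do not say which biological library a technical one repeats. They give no genotype for eCLIP, and the study describes these cells as wild type for Igf2bp3. Each RNA-seq table covered 3 wild-type and 3 I3KO libraries (germline deletion of Igf2bp3), all carrying MLL-Af4. Only the authors' mean over those 6 libraries was used, so no difference between genotypes was tested here.

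IgG receptors work as a balance of activating and inhibitory members. Fcgr1, Fcgr3 and Fcgr4 encode activating receptors for IgG, which in mouse myeloid cells signal through the gamma chain encoded by Fcer1g, a small transmembrane protein with an immunoreceptor tyrosine-based activation motif. Fcgr2b encodes the inhibitory IgG receptor, which carries an inhibitory motif in its own tail. Fcer1a encodes the IgE-binding chain found on mast cells and basophils. Fcgrt encodes the heavy chain of the neonatal Fc receptor, which pairs with beta-2 microglobulin and recycles IgG and albumin. Fcrl1 is a receptor-like relative of B cells.

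Of the 8 genes, 4 had a filtered IGF2BP3 peak in Lin- cells (Fcgr2b, Fcgr3, Fcgr4 and Fcer1g) and 5 in CD11b+ cells (the same 4 genes and Fcgrt). Over all genes of the tables, 26.5% had such a peak in at least 1 Lin- library and 25.6% in at least 1 CD11b+ library. Among genes whose mean was 100 normalized counts or more the shares were 51.9% and 47.9%. The members' own share in CD11b+ cells was 71.4% of the 7 genes with a row in that table. The 5 genes held 76 filtered peaks, which merged over the 10 libraries into 22 sites: 7 on Fcgr2b, 7 on Fcer1g, 5 on Fcgr3, 2 on Fcgr4 and 1 on Fcgrt. Fcgr1, Fcer1a and Fcrl1 had no peak before or after the smInput filter in any of the 10 libraries.

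The sequence of the leading sites separated them into kinds, so these are shown first. All are read 5′ to 3′ on the gene's strand from the RefSeq GRCm38 (mm10) genome, and at most 30 bases are given. The first group lay at exon borders, with exon bases of the GENCODE basic annotation in capitals and its intron bases in lower case. With all annotated transcripts, 60 of the 60 nt of Fcgr2b site 3 and 43 of the 62 nt of Fcer1g site 4 lay in exons. The sites are numbered from the 5′ end of each gene. The windows of Fcgr2b site 3 and Fcgr3 site 2 start upstream of the site itself, by 1 and 9 bases, so that the last base of the exon is the only exon base in Fcgr3 site 2.
Fcgr2b site 7, at the start of exon 7, chr1:170961222-170961251: acttattttcatccacagACAATCCTCCTG
Fcgr2b site 3, at the end of exon 5, chr1:170965682-170965711: CAGGTTCCAGgttggtggctctctttggtg
Fcer1g site 4, at the start of exon 3, chr1:171231020-171231049: tccttttccccactccagATCCAGGTCCGA
Fcgr3 site 2, at the end of exon 1, chr1:171059249-171059278: CTGCTGTTTGgtgagtaagtctcattctga
Fcgr3 site 3, with the whole 21-nt exon 2, chr1:171058586-171058615: tctttacagCTTTTGCAGACAGGCAGAGTG

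The second group lay inside small RNA genes annotated on the same strand within the receptor gene. For Fcgr3 the capitals mark bases of the glycine tRNA gene n-TGtcc1, and for Fcgr4 they mark bases that differ from the U1 snRNA gene Rnu1b1.
Fcgr3 site 1, chr1:171064693-171064722: CGGGTTCGATTCCCGGCCAACGCAgcgtgc
Fcgr4 site 1, chr1:171027983-171028012: agataccatgatcaCgaaggtggCtttccc
Fcgr4 site 2, chr1:171028075-171028104: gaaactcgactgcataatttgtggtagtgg

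The third group lay away from exon borders. Capitals mark bases that the genome file soft-masks as repeats, except for the Fcer1g 3′ UTR site, where they mark the summit of its highest peak.
Fcgr2b site 5, in intron 6, chr1:170961936-170961965: CTTCTCTTTCTTTCTCCCTCTCCGCTCTCT
Fcgrt site 1, in intron 4, chr7:45098438-45098467: GTGTGTGTGTGTGTGTGTAGATAGGTCaga
Fcer1g site 7, in the 3′ UTR, chr1:171229665-171229694: cactgacatttcTCTTcttccagcctcctt

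Fcgr2b, the inhibitory receptor (chr1:170958617-170976547, minus strand), carried the site with the most reads of the 22. Site 7 was 99 nt long and covered the whole of exon 7, which has 38 nt, with its 3′ splice site. It continued into the introns of the basic annotation on both sides. With all annotated transcripts 90 of its 99 nt lay in exons. In CD11b+ cells site 7 held 43, 37, 27 and 15 reads in replicates 1 to 4. In Lin- cells it held 4, 13, 5, 6 and 10 reads in replicates 1, 3, 4, 5 and 6, and no peak in replicate 2. It was therefore found in 5 of 6 Lin- and 4 of 4 CD11b+ libraries, and every CD11b+ count was above every Lin- count. The Lin- library without it had the most peak reads of the 10 libraries (233695 in all), and the lists do not give its total reads.

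The other 6 sites of Fcgr2b were weaker, with 3 to 13 reads each. Site 2 lay at the 3′ splice site of exon 2 and site 3 at the 5′ splice site of exon 5, and both had a peak of 3 reads in 1 Lin- library and of 10 to 13 reads in CD11b+ libraries. Sites 1, 4, 5 and 6 had peaks in CD11b+ cells only, of which site 5 was found in 3 of 4 libraries and the others in 1 each. Sites 5 and 6 were runs of pyrimidines (98.4% and 96.2% C or T). Site 6 was a repeat in which only 5 of 23 windows of 30 nt occurred once in the genome, whereas all 33 windows of site 5 did. No site lay in the long last exon, which holds the 3′ UTR.

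Summed over its sites, Fcgr2b held 2 peaks in each of Lin- replicates 1 and 3, 1 peak in replicates 4, 5 and 6 and none in replicate 2. In CD11b+ cells it held 5, 3, 5 and 1 peaks. Over the biological libraries this was 1.33 ± 1.15 peaks per library in Lin- cells (SD, n = 3) and 4.0 ± 1.41 in CD11b+ cells (SD, n = 2). The difference of 2.67 peaks had p = 0.1 in a two-sided exact permutation test, which is the smallest p that 10 splits of 3 and 2 libraries can give (adjusted p = 0.797 over the 9290 genes with a peak). Scaled to 10000 peak reads of the library, Fcgr2b took 0 to 2.80 reads in Lin- cells (median 1.09, 6 libraries) and 7.05, 3.04, 6.11 and 1.54 in CD11b+ cells. On that scale the cell types overlapped, since CD11b+ replicate 4 lay below Lin- replicates 3 and 6.

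**Figure D1:**
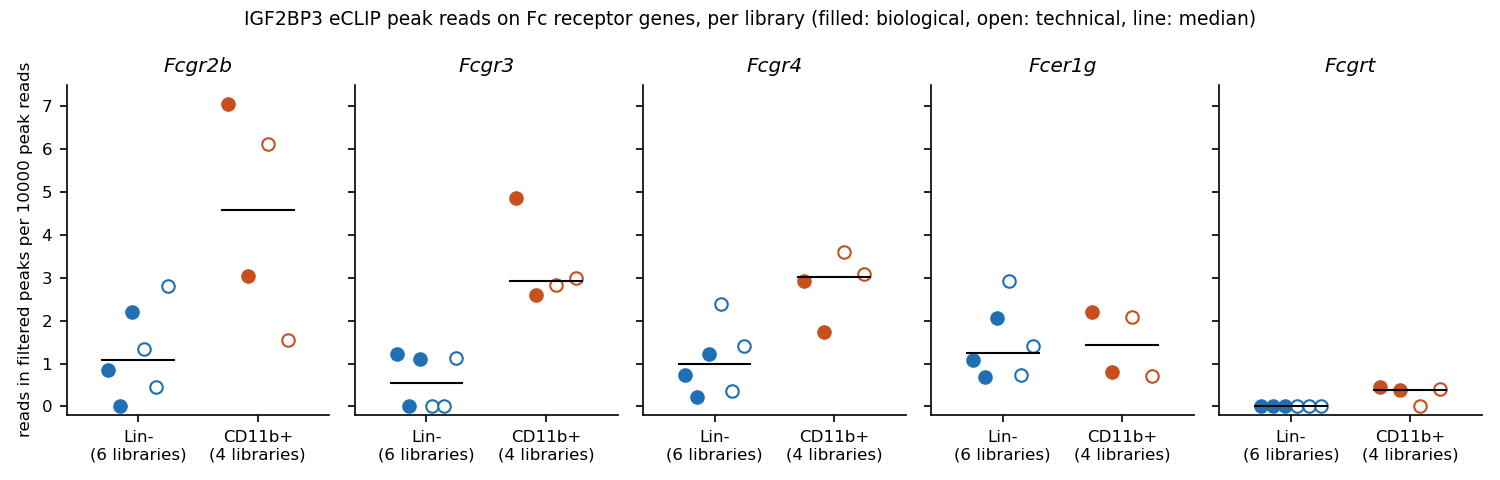
Reads in filtered IGF2BP3 peaks on each gene, per 10000 reads in all filtered peaks of the library (y axis), for 6 Lin- and 4 CD11b+ libraries (points, filled for biological and open for technical; line, median). Fcgr3 values of CD11b+ cells (2.60 to 4.85) lie above all Lin- values (0 to 1.21), while Fcer1g values overlap. The Fcgr3 values include a site over a tRNA gene, which holds all its Lin- reads. At that site the smInput filter removed the peaks of Lin- replicates 2 and 5.

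Fcgr3, the low-affinity activating receptor (chr1:171051174-171064935, minus strand), had 1 site over a tRNA gene and 4 others, which were found in CD11b+ cells only. Site 1 was the only one with peaks in both cell types. It covered 50 of the 72 nt of n-TGtcc1 and 6 nt downstream of it. It held 10, 8 and 4 reads in Lin- replicates 1, 3 and 6, and 17, 25, 15 and 16 reads in the CD11b+ libraries. The tRNA gene is identical over its 72 nt to 6 other glycine tRNA genes of the RefSeq annotation (n-TGtcc2 to n-TGtcc7), and none of the 27 windows of 30 nt in site 1 occurred once in the genome. How reads with several genome matches were placed is not given in the sources used here. The tRNA gene also lies upstream of the first exon of the basic Fcgr3 transcripts. In the comprehensive set site 1 lies within an intron, 6 nt from a 5′ splice site at chr1:171064754. That splice site falls inside the tRNA gene, so the tRNA gene is only partly intronic there. RNA of Fcgr3 and RNA of the tRNA genes cannot be told apart at this site.

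The smInput filter acted on this place and on no other site of the 8 genes. Of 79 unfiltered peaks on the 8 genes, 3 were removed, and all 3 lay over the tRNA gene. Lin- replicate 2 lost peaks of 7 and 16 reads, and its own smInput had a peak of 6 reads there, at chr1:171064716-171064772. Lin- replicate 5 lost a peak of 12 reads, and its own smInput list, which was short at 217 peaks, had none there. Over all genes the filter removed 15.5% of peaks, and 59.4% of the peaks over small RNA genes.

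Away from the tRNA gene, Fcgr3 had no peak in any of the 6 Lin- libraries and had 3, 2, 2 and 2 peaks in CD11b+ replicates 1 to 4. Sites 2 and 3 were the recurrent ones. Site 2 lay in intron 1 and reached the last base of exon 1 at its 5′ splice site, and it held 12, 9 and 6 reads in CD11b+ replicates 1, 2 and 3. Site 3 spanned the 21-nt exon 2, with intron on both sides, and held 12, 8, 5 and 10 reads in the 4 CD11b+ libraries. Sites 4 and 5 lay in introns and were each found in 1 CD11b+ library, with 12 and 3 reads. Every window of 30 nt in these 4 sites occurred once in the genome.

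With the tRNA site included, Fcgr3 had 1, 0 and 1 peaks in the 3 biological Lin- libraries and 4 and 3 in the 2 biological CD11b+ libraries. This was 0.667 ± 0.577 (SD, n = 3) against 3.5 ± 0.707 peaks per library (SD, n = 2), a difference of 2.83 with p = 0.1 in the exact permutation test (adjusted p = 0.797). Without peaks over small RNA genes the difference was 2.5, again with p = 0.1 in the permutation test. Of all 9290 genes tested, 8.56% reached this smallest p with more peaks in CD11b+ cells, and with 10 splits no p can fall below 0.05 (0.0% of genes called). Fcgr2b, Fcgr3 and Fcgrt were among that 8.56%. With Fcgr4, 4 of the 5 bound members had more peaks per library in CD11b+ cells, as did 46.6% of the genes tested. Depth and level moved with this difference, and their part was not tested: CD11b+ libraries had 7085 to 10054 filtered peaks and Lin- libraries 4040 to 10042, and the RNA level of Fcgr3 also differed, as given with the levels.

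Fcgr4, the activating receptor of monocytes and neutrophils (chr1:171018920-171029761, plus strand), had filtered peaks in all 10 libraries, a recurrence seen in 3.16% of genes over the 6 Lin- libraries and in 6.32% over the 4 CD11b+ libraries. Every one of its 18 peaks lay within Gm26110, a 165-nt U1 snRNA gene (chr1:171027965-171028129) in intron 4 of Fcgr4 on the same strand. U1 is the small nuclear RNA that pairs with 5′ splice sites. Gm26110 was identical to Rnu1b1 at 159 of 165 positions. Another 11 filtered peaks at the same place carried the gene ID of Gm26110 instead, 8 in Lin- and 3 in CD11b+ libraries. The 8 Lin- ones had the same read numbers, library by library, as the 8 Lin- peaks listed under Fcgr4. No exon of Fcgr4 and no other stretch of its introns had a peak.

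At Fcgr4 site 1 the reads were 6, 5, 6, 6, 5 and 5 in Lin- replicates 1 to 6 and 18, 13, 15 and 16 in CD11b+ replicates 1 to 4. Site 2, directly downstream, held 3 reads in each of Lin- replicates 3 and 4 and 14, 15, 18 and 14 reads in the CD11b+ libraries. The CD11b+ read numbers were above the Lin- ones at both sites. Scaled to 10000 peak reads of the library, the cell types overlapped, since Fcgr4 took 2.40 reads in Lin- replicate 4 and 1.74 in CD11b+ replicate 2. Of the windows of 30 nt, 28 of 54 occurred once in the genome at site 1 and 0 of 26 at site 2, where the most frequent window had 25 copies. Peaks per biological library were 1.33 ± 0.577 in Lin- (SD, n = 3) and 2.5 ± 0.707 in CD11b+ cells (SD, n = 2), with p = 0.3 in the exact permutation test. IGF2BP3 on the Fcgr4 transcript and IGF2BP3 on a U1 RNA cannot be told apart in these lists. Without peaks over small RNA genes Fcgr4 had none in either cell type, and the genes with a peak numbered 2 of 8 in Lin- cells (Fcgr2b and Fcer1g) and 4 of 8 in CD11b+ cells. Over all genes 25.9% and 25.0% had a peak outside small RNA genes, so the Lin- count was at the share of all genes.

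Small RNA genes were a minor class over the whole series. They lay under 3.84% of the 32697 merged sites of all genes and 9.44% of filtered peaks. Of 8824 protein-coding genes with a filtered peak, 96 (1.09%) had, like Fcgr4, peaks over small RNA genes only.

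**Figure D2:**
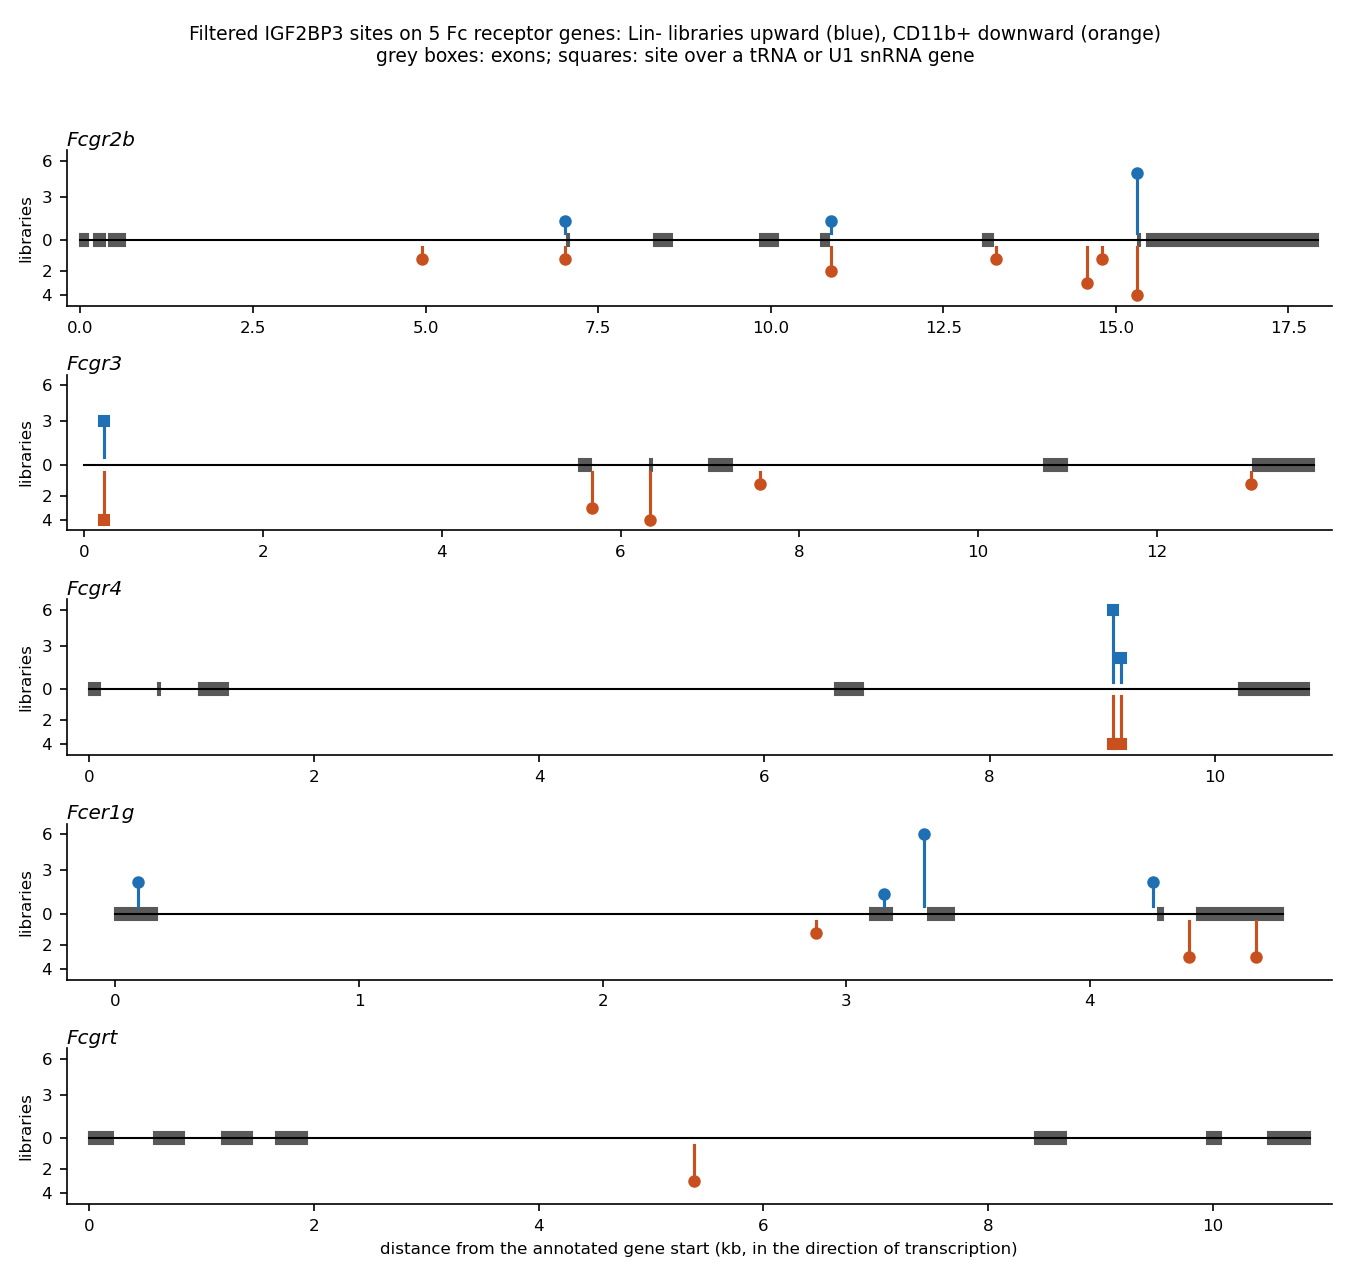
Position of the 22 sites along 5 genes (x axis, kb from the annotated gene start; grey boxes, exons of the basic annotation), with the number of libraries holding each site upward for Lin- (of 6) and downward for CD11b+ (of 4). Squares mark the sites over the tRNA gene in Fcgr3 and the U1 gene in Fcgr4, and the sites of Fcer1g point one way each, with no site found in both cell types.

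Fcer1g, the shared signaling chain (chr1:171229572-171234365, minus strand), was the member with peaks in all 10 libraries at places other than small RNA genes, and its peaks lay at different places in the 2 cell types. None of its 7 sites had peaks in both: 4 were Lin- sites and 3 were CD11b+ sites. Of 5049 genes with sites in both cell types, 37.1% likewise shared none, and of the 1155 genes with at least 3 sites in each cell type 13.2% shared none. Site 4 was found in 6 of 6 Lin- and 0 of 4 CD11b+ libraries. It covered the 3′ splice site of exon 3 and held 4, 4, 8, 11, 3 and 5 reads in Lin- replicates 1 to 6.

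The other Lin- sites of Fcer1g were site 1 in the 5′ UTR of exon 1 (7 reads in each of replicates 2 and 5), site 3 in the coding part of exon 2 (5 reads in replicate 2) and site 5 over the 3′ splice site of exon 4 (5 and 7 reads in replicates 1 and 3). The CD11b+ sites lay further toward the 3′ end of the gene, apart from 1. Site 7, in the 3′ UTR, held 11, 7 and 19 reads in CD11b+ replicates 1, 2 and 3. Site 6, which lay 17 nt from the 3′ splice site of exon 5, held 13, 6 and 3 reads in replicates 1, 2 and 4. Site 2, a repeat in intron 1 with no window unique in the genome, had 4 reads in replicate 4.

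The number of peaks on Fcer1g did not separate the cell types. It was 2, 3, 2, 1, 2 and 1 in the Lin- libraries and 2, 2, 1 and 2 in the CD11b+ libraries. The biological libraries gave 2.33 ± 0.577 (SD, n = 3) and 2.0 ± 0 (SD, n = 2), with p = 1 in the exact permutation test. In reads per 10000 peak reads the values were 0.685 to 2.93 in Lin- cells (median 1.25) and 2.20, 0.806, 2.07 and 0.720 in CD11b+ cells, again with overlap. Each peak rested on 3 to 19 reads, so a weak peak missed at this depth and a site that was not bound cannot be told apart.

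Fcgrt, the neonatal Fc receptor chain (chr7:45092990-45103851, minus strand), had a single site, in intron 4, found in CD11b+ replicates 1, 2 and 4 with 5, 6 and 4 reads. It had no peak in any Lin- library. Peaks per biological library were 0 ± 0 (SD, n = 3) and 1.0 ± 0 (SD, n = 2), with p = 0.1 in the exact permutation test. Part of the site was a GT repeat, 91.2% of the whole was soft-masked, and 7 of its 39 windows of 30 nt occurred once in the genome. None of its peaks had a deposited CLIPper value below 0.001, so under that threshold Fcgrt had no peak.

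**Figure D3:**
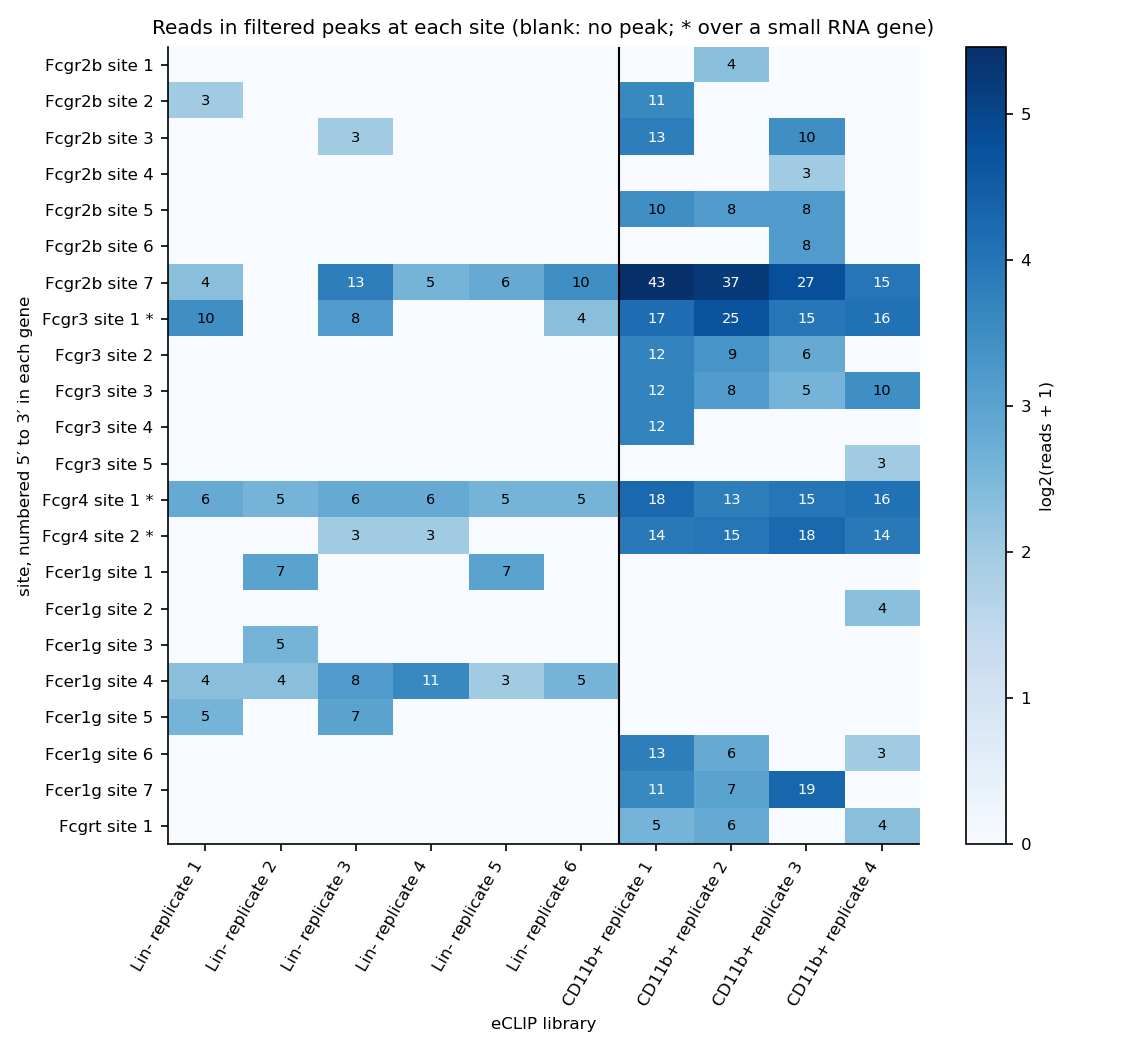
Reads in filtered peaks at each of the 22 sites (rows, numbered 5′ to 3′ in each gene; asterisk, over a small RNA gene) in each eCLIP library (columns; colour, log2 of reads plus 1; blank, no peak). Fcgr2b site 7 and Fcgr4 site 1 fill almost the whole row, Fcer1g sites 1, 3, 4 and 5 only Lin- columns, and Fcgr3 sites 2 to 5 only CD11b+ columns.

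Taking the 22 sites as a whole, 10 were found in Lin- and 18 in CD11b+ libraries. Both kinds of library held 6, which is 6 of 10 Lin- sites and 6 of 18 CD11b+ sites. Outside small RNA genes the numbers were 3 of 7 and 3 of 15. Over all genes, 24.5% of Lin- sites and 28.7% of CD11b+ sites had a peak in the other cell type. Of the 22 sites 7 came from 1 library only, a share of 57.6% among the sites of all genes.

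By the middle of the site, 19 of 22 lay in introns, 2 in UTRs (the first and last exons of Fcer1g) and 1 in coding sequence (exon 2 of Fcer1g). The 19 include Fcgr3 site 1, which is intronic only in the comprehensive set, and with all transcripts of that set the number was 17. Over all genes 81.2% of sites lay in introns, 9.04% in UTRs and 5.65% in coding sequence. The count by middle hides the exon borders: 10 sites held at least 1 exon base, and 12 held none. A splice site lay inside 7 of the 22 sites, and within 30 nt of 11. Over all genes with introns 32.8% of sites covered a splice site and 44.4% came within 30 nt of one. The members' share was therefore near that of all genes.

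The CACA motif, a CA-rich sequence of the kind IGF2BP proteins are known to prefer, was searched on the gene's strand in the 51 nt around the middle of each site. It was present in 3 of 22 sites (Fcgr2b sites 1 and 7 and Fcgr3 site 4) and in 22.4% of the sites of all genes. GGAC was present in 1 of 22 (Fcgr4 site 2) and in 11.0% of all sites. These letters describe the windows and say nothing of whether a site is bound directly. The sites were also laid, without gaps, over the other member genes. The best identity was 90.6%, for the repeat of Fcer1g site 2 within Fcgr4, and 45.5% for Fcgr2b site 7 within Fcgr3.

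RNA levels were given by the authors as a mean normalized count over 6 libraries, with no spread, and the tables were normalized separately, so levels are stated as percentiles of the mean count per kb of exon within each table. In Lin- cells the order was Fcer1g (99.1), Fcgr3 (93.8), Fcgr2b (88.6), Fcgrt (64.5), Fcgr4 (56.8), Fcgr1 (55.1), Fcrl1 (49.7) and Fcer1a (47.6), with all values percentiles. In CD11b+ cells it was Fcer1g (99.0), Fcgr3 (98.2), Fcgr2b (95.2), Fcgr4 (91.3), Fcgrt (83.3), Fcrl1 (44.9) and Fcgr1 (43.2). The rank of Fcer1g was nearly equal in both tables, that of Fcgr4 differed most, and that of Fcgr1, the high-affinity receptor, was lower in the CD11b+ table. Whether neighbours in this order differ beyond the spread of libraries cannot be given from means alone. In bulk samples, fewer cells of a type and less RNA per cell cannot be told apart.

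**Figure D4:**
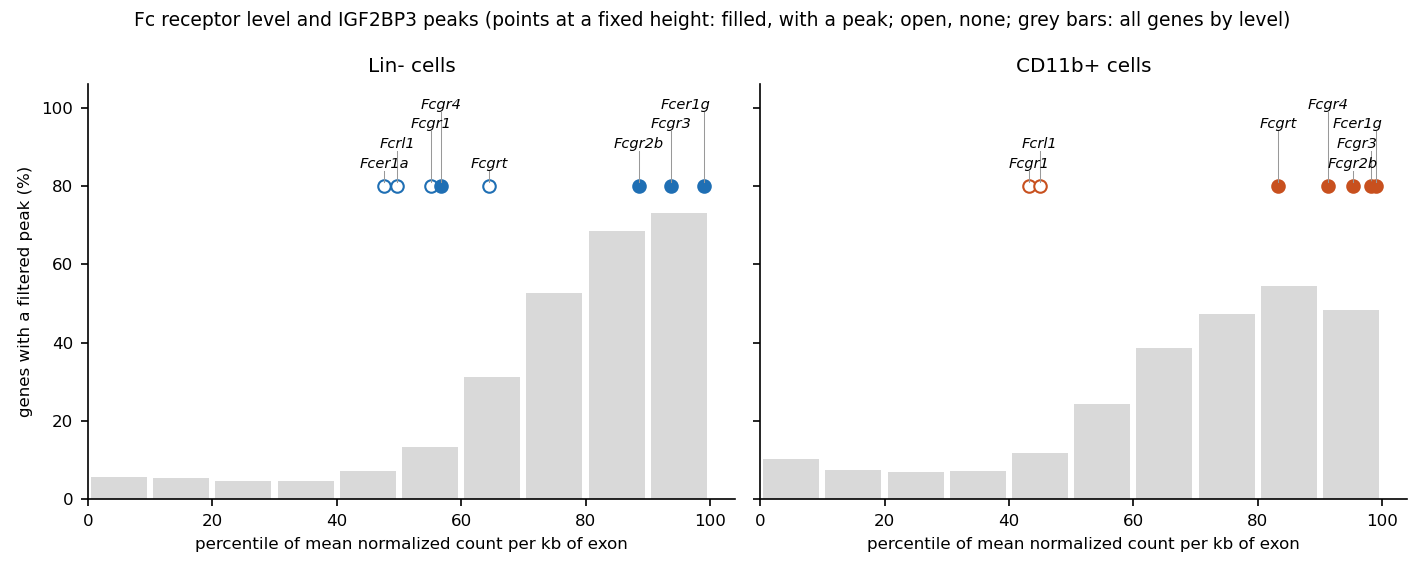
Share of all genes with a filtered IGF2BP3 peak (grey bars, %, y axis) by 10 equal groups of the RNA level (x axis, percentile of the mean normalized count per kb of exon) in Lin- and CD11b+ cells, with the Fc receptor genes placed by level at a fixed height (filled, with a peak; open, none). Members at percentile 83.3 or above all have a peak, and of the others only Fcgr4 in Lin- cells does.

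The genes with peaks were those with high levels. Fcgr2b, Fcgr3 and Fcer1g lay between percentiles 88.6 and 99.1 in both tables. When all genes were cut into 10 equal groups by level, the share with a peak was 5.62% in the lowest group and 68.5% and 73.1% in the upper ones of the Lin- table. In the CD11b+ table it was 10.2% in the lowest group, 54.6% in group 9 and 48.3% in group 10. Of the members at the lower levels, Fcgr1, Fcrl1, Fcer1a and, in Lin- cells, Fcgrt had no peak, and Fcgr4 in Lin- cells had peaks over the U1 gene only. Missing peaks were common at such levels, since in the middle of the level scale (groups 5 and 6) 7.09% to 24.3% of genes had a peak. In group 7 of the Lin- table, which holds Fcgrt, the share was 31.1%.

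Fcer1a and Fcrl1 mark cell types other than the ones named by the labels, and their levels were set beside markers of those types. Counts of the separately normalized tables are not on one scale, so they give no fold difference between cell types. In the Lin- table Fcer1a had a mean of 25.6 normalized counts, next to 833 for Ms4a2 (the beta chain of the IgE receptor), 2826 for Cpa3 and 895 for Mcpt8, genes of mast cells and basophils. In the CD11b+ table Ms4a2 had 38.0, Cpa3 46.3 and Mcpt8 297. Not every marker of the list followed that order, since Hdc lay at percentile 84.2 in Lin- and 88.7 in CD11b+ cells, and Cma1 was low in both (1.76 and 2.05 normalized counts). The median percentile of the list was 80.4 in Lin- and 37.5 in CD11b+ cells. None of the 7 mast cell and basophil markers had a peak in either cell type. Fcrl1 had 88.1 in Lin- and 43.0 in CD11b+ cells, at percentiles 49.7 and 44.9. The B-cell genes Cd79a (5.77) and Ms4a1 (1.10) were near 0 in Lin- cells and had 146 and 69.1 in CD11b+ cells, while Ebf1 had 101 in Lin- and 25.4 in CD11b+ cells and Cd79b 397 and 433. The whole B-cell list of 7 genes had a summed mean of 536 in Lin- and 901 in CD11b+ cells, and 1 of the 7 had a peak. The markers thus had no common order to set Fcrl1 against.

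The labels were checked on markers in the same way, with the same limit of scale for counts and summed means. Kit, a stem and progenitor receptor, had 6974 normalized counts in Lin- and 673 in CD11b+ cells, at percentiles 93.6 and 66.6. Elane of the same list had 14416 and 43055, Mpo lay at percentiles 99.96 and 99.89, and the 7 genes summed to 148044 and 132199. Itgam, which encodes CD11b itself, had no row in the Lin- table used here and a mean of 17.0 in the CD11b+ table, at percentile 30.4, although it carried filtered peaks in all 4 CD11b+ libraries. Of the 5024 exon bases of Itgam, 3450 are shared with Gm49368, a gene on the same strand with a mean of 77.2, so the level of Itgam in this table does not check the selection. In GENCODE M21 none of the 8 Fc receptor genes shares an exon base with another gene on its strand. The tRNA gene n-TGtcc1, into which an Fcgr3 exon of the comprehensive set reaches, comes from RefSeq and was not part of that check. The monocyte list had a summed mean of 49498 in Lin- and 113594 in CD11b+ cells, much of it from Lyz2 (20990 and 72146), while Ccr2 had 11894 and 2971 and the median percentile of the list was 95.6 and 94.9. The summed mean of the neutrophil list was 10140 and 110587, and that of the erythroid list 176 and 2381. Their part in the differences between cell types was not tested.

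The partners and signaling genes of Fc receptors made up the rest of the pathway. Of 50 genes in 4 lists, 33 had a filtered peak in Lin- cells and 34 in CD11b+ cells, with 181 and 184 merged regions. Over all genes the shares were 26.5% and 25.6%. The median level percentile of the lists was 89.6 and 91.9, against 60.6 and 91.3 for the members, and of all genes at such levels 68.5% had a peak in Lin- cells (group 9) and 48.3% in CD11b+ cells (group 10). Of the 10 other Fc receptor and Fc-binding genes, none had a peak in Lin- cells and 1 (Trim21, a cytosolic Fc receptor) in CD11b+ cells. The median level percentile of this list was 28.2 in Lin- and 39.8 in CD11b+ cells, over its 9 and 8 genes with a row. Of all genes at such levels 4.64% had a peak in Lin- cells (group 3) and 7.24% in CD11b+ cells (group 4). The kinases and effectors had a peak in 19 of 23 genes in each cell type and the inhibitors in 7 of 8 in each.

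Among adaptors and partner chains 7 of 9 had a peak in both cell types. Tyrobp, an adaptor with an activation motif like that of Fcer1g, had 12 peaks in 6 Lin- libraries and 4 peaks in 3 CD11b+ libraries. B2m, the partner of Fcgrt, had 15 peaks in 6 Lin- libraries, all merged into 1 region, and 6 peaks in 4 CD11b+ libraries in 2 regions. In numbers of merged regions in Lin- and CD11b+ cells, Lat2 had 6 and 3, Lcp2 6 and 6, Gab2 5 and 7, Grb2 6 and 3, and Hcst 1 and 1. Lat and Blnk had none.

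The pathway genes with the most merged regions in Lin- cells were Dock2, an activator of Rac, with 16, Inpp5d, the phosphatase recruited by the inhibitory receptor, with 14, and Syk, the kinase that binds activation motifs, and Pik3cd, with 11 each. In CD11b+ cells they were Dock2 with 43, Syk with 12, and Plcg2 and Pik3r1 with 10 each. Regions were counted without scaling to gene length, so the order does not rank genes by strength of binding. For Dock2 the level percentile was 93.0 in Lin- and 93.7 in CD11b+ cells. Fcgr2b, with 3 regions in Lin- and 7 in CD11b+ cells, was the member with the most regions in CD11b+ cells.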

How the data were processed

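IGF2BP3 eCLIP peaks came from 6 Lin- and 4 CD11b+ libraries and 10 smInput libraries, and RNA levels from 1 table per cell type. The authors removed repeat reads and duplicates by molecular identifier, aligned to mm10 (the submitters' processing notes name STAR 2.5.3a, Bowtie2 and DESeq2), ran CLIPper on each library and dropped peaks overlapping those of the smInput. The deposited lists give each peak's position, a p-value and a name ending in a number, read here as the reads in the peak, which the sources used here do not state. The deposited tables hold the authors' mean normalized count over 6 libraries, which is no raw count. Their log2 fold changes, errors, statistics, p-values and marks of called genes are the authors' comparisons and were not used.

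Peaks were given to genes by the Ensembl ID in their names, and overlapping peaks (at least 1 nt) were merged into sites over libraries. Places come from GENCODE M21, and small RNA genes from RefSeq and GENCODE. Peaks per gene were compared between the 3 Lin- and 2 CD11b+ biological libraries with a two-sided exact permutation test and Benjamini-Hochberg adjustment over 9290 genes. The code was first run on simulated data. The simulated differences were far larger than those of the members, so that run says nothing of the test at such low counts. Technical libraries were described and entered no main test. The members and lists were chosen with earlier results of these data known. Genes named outside the members were those of the lists with the most regions in each cell type, the partner chains, and the defining markers, of which 1 is not reported here. The lists give no total reads, so the depth of a library is known only through its peaks: 35663 to 233695 reads in filtered peaks in Lin- and 91587 to 161236 in CD11b+ libraries. Alternatives were peaks before the filter, a CLIPper value below 0.001, regions in at least 2 libraries, other scalings, all libraries together, and leaving out each biological library. Lists without peaks over small RNA genes and a scaling by peak reads were added after the data were seen.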

Additional observations from a re-analysis of the deposited data

Results flagged for a closer look

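Of 22 groups of 4 to 6 libraries, 4 held a value far from the rest, beside a nominal share of 1 in 20. That share does not hold for small counts, where a difference of 1 peak is flagged when the other libraries are equal. No excess over chance is therefore shown. Fcgr3 had 4 filtered peaks in CD11b+ replicate 1 and 3 in each of the other CD11b+ libraries, and in the same library 4.85 reads per 10000 peak reads. Fcer1g had 1 filtered peak in CD11b+ replicate 3 and 2 in each of the others. Fcgrt had 0 peaks in CD11b+ replicate 3 and 1 in each of the others. In addition, 11 filtered peaks under the gene ID of Gm26110 lay inside Fcgr4, outside the peaks counted for that gene, where no smInput library had a peak.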

How the results depend on the processing

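No paired analysis was possible because the replicate numbers of Lin- and CD11b+ libraries mark separate samples and the labels do not tie technical to biological ones. The number of genes past the threshold is 0 by construction in each fit of biological libraries and tells nothing of stability. Among the other values that answer a comparison, 5 moved by more than 1.5 times or by more than 10 percentile points. Without peaks over small RNA genes, 2 of the 8 genes had a Lin- peak in place of 4. Regions merged within each cell type numbered 10 in Lin- and 19 in CD11b+ cells. With a CLIPper value below 0.001 the Lin- number was 6, and with regions found in at least 2 libraries the CD11b+ number was 11. Counting a site as intronic only where it held no exon base gave 12 sites in place of 19. The median level percentile of the members in Lin- cells was 37.4 among genes whose mean was 10 normalized counts or more, in place of 60.6. For Fcer1g the difference in peaks per library (CD11b+ minus Lin-) was -0.333, and it was 0.50 with a CLIPper value below 0.001 and 0.226 as reads per 10000 peak reads, with p = 0.7 in the exact permutation test each time. Leaving out each biological library in turn gave differences of 1.67 to 3.67 for Fcgr2b (1.67 without CD11b+ replicate 1), 2.33 to 3.33 for Fcgr3, 0.667 to 1.67 for Fcgr4 (0.667 without CD11b+ replicate 1), -0.50 to 0 for Fcer1g and 1 for Fcgrt. With technical libraries counted as samples, permutation p was 0.00476 for Fcgr3 and 0.0333 for Fcgr2b, Fcgr4 and Fcgrt, and no gene had an adjusted p below 0.05. Technical libraries repeat biological ones and are not independent, and more libraries allow more splits and so a smaller p. These p-values therefore cannot be read as evidence of a difference between cell types. The cause of the other changes was not tested.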

Other observations

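In each cell type the deposited RNA-seq tables and peak lists met at Itgam in an uneven way: a mean of 17.0 normalized counts in CD11b+ cells stood beside 23 filtered peaks in 4 libraries, in 11 merged regions. Gm49368, with which Itgam shares 3450 exon bases on the same strand, had a mean of 49.1 in the Lin- and 77.2 in the CD11b+ table. How shared bases were counted is not given in the sources used here.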
